A study of Mus musculus with 8 samples.

Results

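The natriuretic peptide system was followed through 7 genes, which encode the peptides Nppa, Nppb and Nppc, the protease Corin and the receptors Npr1, Npr2 and Npr3. They were listed by name and found in the count files through the symbol of each Ensembl gene, and all 7 were found among 49315 genes. The libraries came from whole mouse hearts dissected at E18.5, shortly before birth. Of these, 4 were homozygous for CHD4 M195I, an amino acid exchange in the ATPase of the NuRD chromatin remodelling complex, and 4 were wild type (WT). The labels name no treatment, strain, litter or Cre driver, and nothing in them limits the exchange to a cell type or says whether a heart was pooled.

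Atrial natriuretic peptide (ANP, from Nppa) and B-type natriuretic peptide (BNP, from Nppb) are hormones of cardiomyocytes that are released when the muscle is stretched. Corin cleaves the ANP precursor at the cell surface. Both hormones act on Npr1, a receptor whose intracellular part makes cyclic GMP, whereas C-type natriuretic peptide (CNP, from Nppc) acts on Npr2, and Npr3 binds the peptides and removes them. In the embryo Nppa marks atrial and trabecular myocardium.

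Between 18673488 and 21341235 reads were counted per mutant library and between 18375951 and 20815388 per WT library. The cardiomyocyte genes Myl2 and Myl7 were abundant, with 3600 ± 81.3 and 972 ± 136 CPM (counts scaled to a common library size) in mutants and 3669 ± 305 and 1037 ± 16.7 CPM in WT (SD, n = 4 each). RNA of lung and airway was present in part of the libraries: the 13 marker genes of that epithelium summed to 3.81 to 891 CPM in mutants and 6.19 to 606 CPM in WT. The 7 erythroid markers summed to 1252 to 1973 CPM in mutants and 2034 to 3893 CPM in WT, with no overlap, and the part of this in the peptide levels was not tested. Chd4 itself had 482 ± 8.48 CPM in mutants and 452 ± 6.37 CPM in WT, a log2 fold change of 0.09 ± 0.03 (SE) with an adjusted p of 0.094 in edgeR. An amino acid exchange does not show in counts per gene, so this level does not check the genotype.

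Of the 7 genes, 6 had enough reads to be tested, and 2 of these 6 passed at a Benjamini-Hochberg adjusted p under 0.05 in edgeR's quasi-likelihood test over 16372 genes. Nppb fell and Npr1 rose. Over all tested genes, 13.2% passed, 7.49% as lower and 5.75% as higher in mutants. For the same 2 genes, the CPM ranges of the genotypes were fully separate, as they were for 18.6% of all tested genes. In bulk tissue, fewer cells of a type and less RNA per cell cannot be told apart.

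**Figure D1:**
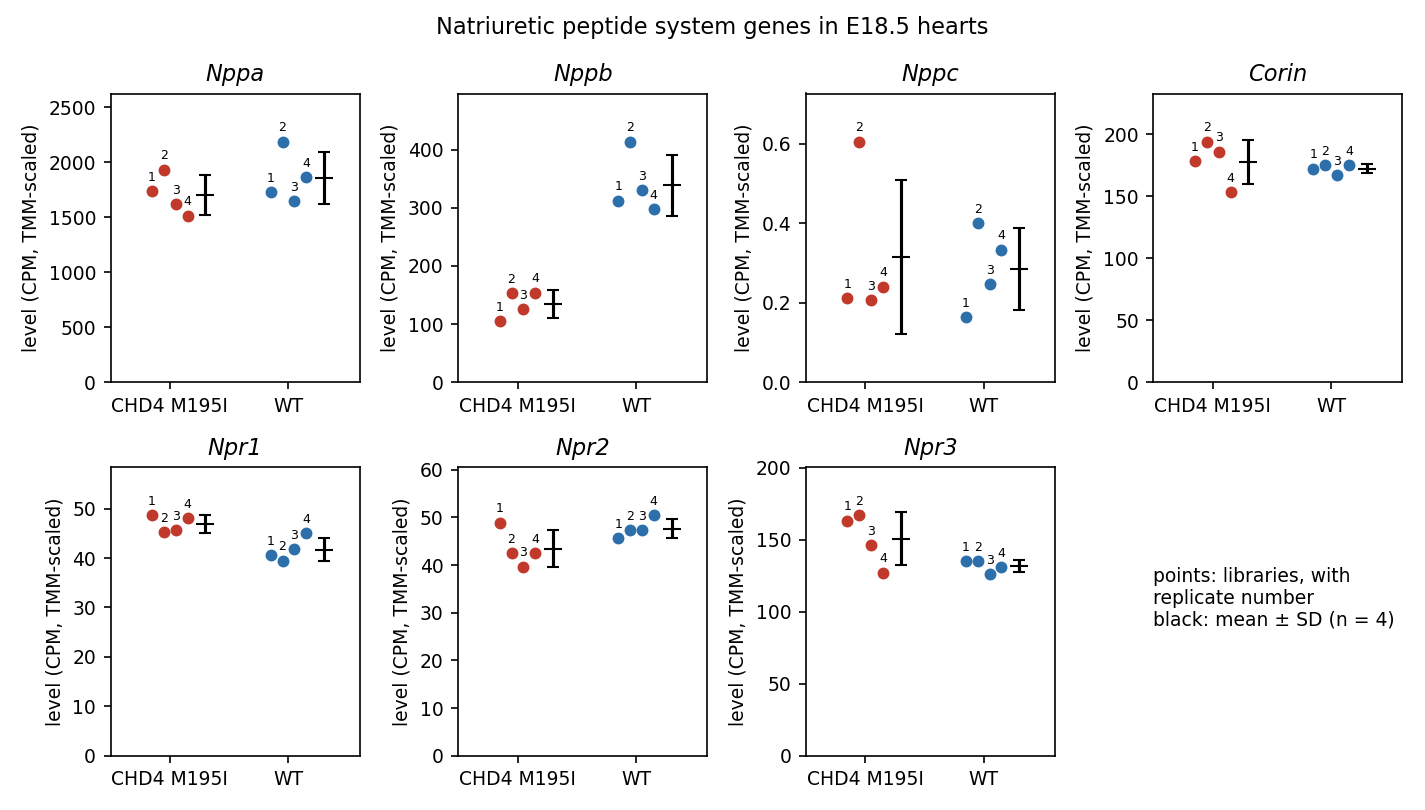
CPM of each of the 7 genes in every library (1 point per library, linear axes, CHD4 M195I left of WT), with the mean and SD of the 4 libraries as a bar. Nppb lay between 105 and 154 CPM in mutants and between 298 and 414 CPM in WT, Npr1 was slightly higher in every mutant than in any WT library, and the other genes overlapped between genotypes.

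Nppb, the BNP gene, showed the change that stood furthest from 0 among the 6 tested genes. Its level was 105, 153, 126 and 154 CPM in mutant replicates 1 to 4, against 312, 414, 330 and 298 CPM in WT replicates 1 to 4. Every mutant library was thus far below every WT library. The means were 135 ± 23.6 CPM in mutants and 338 ± 51.8 CPM in WT (SD, n = 4 each), so the mutant mean was 39.8% of the WT mean. The log2 fold change was -1.33 ± 0.17 (SE), with an adjusted p of 0.004 in edgeR, and placed Nppb 14th from the lowest of the 16372 tested genes. These levels rested on 1985 to 3297 reads in mutants and 5361 to 8282 reads in WT, and the gene (ENSMUSG00000029019, GRCm38 chromosome 4, 147985788 to 147987205, plus strand) shares no exon base with another gene.

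The fall of Nppb passed in each of the 8 fits that left out 1 library, with log2 fold changes between -1.40 and -1.22. In the 5 libraries with airway RNA it was -1.16 (adjusted p = 0.00015 in edgeR). In the 3 libraries without airway RNA it was -1.67, a value against a lone WT library. With Xist as a covariate it was -1.48 and did not pass (adjusted p = 0.11). Xist lay between 1.55 and 1.98 CPM in mutants and between 1.25 and 1.56 CPM in WT, so this covariate nearly separates the genotypes. Sex is given alike for all 8 libraries, since each file has a header that starts with Male. Y-linked RNA summed to 203 to 214 CPM in mutants, and to 215, 204, 211 and 101 CPM in WT replicates 1 to 4.

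Nppa, the ANP gene, lies 13.5 kb downstream of Nppb on the same strand and did not pass the test. Its level was 1735, 1931, 1619 and 1514 CPM in mutant replicates 1 to 4, against 1727, 2186, 1642 and 1865 CPM in WT replicates 1 to 4. The genotypes overlapped over most of their range, and the highest value of all was WT replicate 2. The means were 1700 ± 179 CPM in mutants and 1855 ± 239 CPM in WT (SD, n = 4 each), and the log2 fold change was -0.13 ± 0.11 (SE, adjusted p = 0.53 in edgeR). Leaving out 1 library moved it between -0.19, without mutant replicate 2, and -0.04, without WT replicate 2, and it did not pass in any of these 8 fits. In the 5 libraries with airway RNA it was -0.16 (adjusted p = 0.079 in edgeR). With the lung and airway markers as a covariate it was -0.12 (adjusted p = 0.055 in edgeR). In the 3 libraries without airway RNA it was -0.25, a value against a lone WT library. Nppa (ENSMUSG00000041616, GRCm38 chromosome 4, 148000722 to 148002079, plus strand) took 0.178% of all counted reads. Of its exon bases, 532 (61.5%) are shared with the antisense gene Gm13054, which had 210 to 295 reads in mutants and 204 to 345 reads in WT. No source used here says whether the counting took strand into account, so reads of both genes cannot be told apart in that stretch.

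The promoters of both genes are shown because Nppb fell while its neighbour Nppa did not pass in the main comparison. They are the reference sequence of RefSeq on GRCm38.p6, plus strand, 5′ to 3′, and capitals mark matches on either strand to the fully spelled motifs named below.
Nppa, chr4:148000472-148000721: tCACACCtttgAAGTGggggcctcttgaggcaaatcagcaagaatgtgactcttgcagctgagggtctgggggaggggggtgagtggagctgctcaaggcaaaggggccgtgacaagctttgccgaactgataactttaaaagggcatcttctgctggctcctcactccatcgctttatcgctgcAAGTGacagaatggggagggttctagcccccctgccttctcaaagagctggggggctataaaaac
Nppb, chr4:147985650-147985787: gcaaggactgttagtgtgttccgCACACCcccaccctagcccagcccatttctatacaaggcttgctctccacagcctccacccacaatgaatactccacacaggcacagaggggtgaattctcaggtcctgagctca
Nppb, chr4:147985795-147985821: GGAATGcagctgataaatcagAGATAA

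RefSeq starts Nppb at base 147985900, downstream of the start in the count files, so only 138 of the 250 bases before that start, and the 27 bases with the remaining matches, are printed. Within its 250 bases Nppb held 1 match to the GATA site AGATAA, 84 to 79 bases before the RefSeq start, and 1 to the TEAD site CATTCC on the reverse strand, 105 to 100 bases before it. The Nppa window held 0 of each in these spellings. Other spellings were not searched, and TGATAA, which differs from AGATAA in its first base, occurs in the printed sequences of both genes. It held 2 matches to the NKX2-5 site AAGTG, at 239 to 235 and 65 to 61 bases before its start, where the Nppb window held 0. Each had 1 match to the T-box site GGTGTG, on the reverse strand. For the E-box CANNTG, Nppb had 1 match and Nppa 2, and for the AP-1 site TGACTCA both had 0. For the CArG core of SRF, only the outer letters were searched, with any letter allowed between them. Nppb had 0 matches to these outer letters and Nppa 1, at 230 to 221 bases before its start. The inner letters of the Nppa match include C and G, and such a match does not identify an SRF site. Such short motifs are common: of 27025 promoter windows of the same length, 10.3% held AGATAA, 12.6% CATTCC, 40.8% AAGTG, 16.2% GGTGTG, 4.43% TGACTCA, 66% CANNTG and 66.7% the CArG core. A match describes letters and shows no binding. The GC content was 54.8% for Nppb and 54.4% for Nppa, against a median of 52% over all windows.

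The difference in response between the 2 cardiac peptides was tested within each library, where no scaling between libraries enters. Per length, as RPKM (CPM divided by gene length in kilobases), Nppa stood 14.9, 11.4, 11.6 and 8.88 times above Nppb in mutant replicates 1 to 4, against 4.99, 4.77, 4.5 and 5.66 times in WT replicates 1 to 4. The ratio was thus higher in every mutant than in any WT library, and it varied more among mutants. The log2 ratio of Nppb to Nppa counts was lower in mutants by a difference of -1.21, with p = 0.0286 in a two-sided exact permutation test over the libraries. This is the smallest p that 4 against 4 libraries can give, and the value adjusted over the 2 ratios tested was 0.0571, above the threshold of 0.05.

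**Figure D2:**
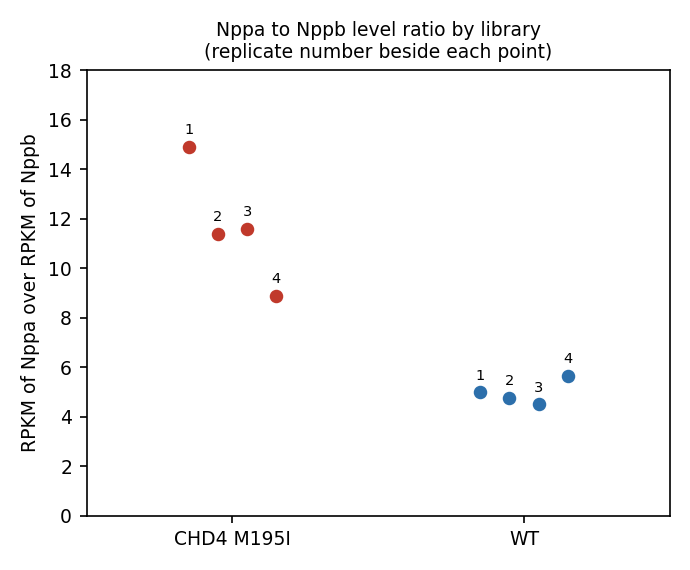
RPKM of Nppa over RPKM of Nppb in each library (1 point per library with its replicate number, linear axis from 0, CHD4 M195I left of WT). The mutants lie between 8.88 and 14.9 and the WT libraries between 4.5 and 5.66.

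Nppc, the gene of CNP, was close to the limit of detection. It had 4, 13, 4 and 5 reads in mutant replicates 1 to 4, against 3, 8, 5 and 6 reads in WT replicates 1 to 4. It did not pass the filter on low counts and was not tested. At 0.206 to 0.605 CPM in mutants and 0.163 to 0.4 CPM in WT, a difference in Nppc was not detectable at this depth. The gene lies on GRCm38 chromosome 1, 86666291 to 86670571, minus strand.

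Corin, the protease that activates pro-ANP, was at 178, 194, 186 and 153 CPM in mutant replicates 1 to 4, against 172, 175, 167 and 175 CPM in WT replicates 1 to 4. The mutant values spread around the WT values on both sides. The means were 178 ± 17.9 CPM in mutants and 172 ± 3.66 CPM in WT (SD, n = 4 each), with a log2 fold change of 0.04 ± 0.06 (SE, adjusted p = 0.72 in edgeR). Corin lies on chromosome 5, 72300025 to 72504473, minus strand, and shares 2.72% of its exon bases with Gm20647.

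Npr1, the cyclase receptor of ANP and BNP, rose by a small amount. It had 48.7, 45.2, 45.6 and 48.1 CPM in mutant replicates 1 to 4, against 40.6, 39.5, 41.8 and 45 CPM in WT replicates 1 to 4. The genotypes did not overlap, but WT replicate 4 came close to the lowest mutant. The means were 46.9 ± 1.76 CPM in mutants and 41.7 ± 2.37 CPM in WT (SD, n = 4 each), a log2 fold change of 0.17 ± 0.05 (SE, adjusted p = 0.042 in edgeR). The call was lost in 6 of the 8 fits that left out 1 library, and was kept only without mutant replicate 2 or without WT replicate 4. Across these 8 fits the log2 fold change ranged from 0.14 to 0.21 and the adjusted p from 0.023 to 0.12 in edgeR. In the 5 libraries with airway RNA the log2 fold change of Npr1 was 0.14 and did not pass (adjusted p = 0.17 in edgeR). In the 3 libraries without airway RNA it was 0.25, a value against a lone WT library. Npr1 lies on chromosome 3, 90450591 to 90465866, minus strand, and shares 11.7% of its exon bases with Gm16048, which had 6 to 14 reads in mutants and 4 to 20 reads in WT.

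Npr2, the cyclase receptor of CNP, had 48.9, 42.5, 39.7 and 42.5 CPM in mutant replicates 1 to 4, against 45.6, 47.3, 47.3 and 50.5 CPM in WT replicates 1 to 4. Mutant replicate 1 lay among the WT libraries and the other mutants lay below them. The means were 43.4 ± 3.89 CPM in mutants and 47.7 ± 2.05 CPM in WT (SD, n = 4 each). The log2 fold change was -0.14 ± 0.06 (SE, adjusted p = 0.17 in edgeR), and it ranged from -0.20 without mutant replicate 1, where it passed (adjusted p = 0.021), to -0.09 without mutant replicate 3 (adjusted p = 0.46). It was -0.22 in the 5 libraries with airway RNA (adjusted p = 0.028 in edgeR). The gene lies on chromosome 4, 43631935 to 43651244, plus strand, and shares 5.7% of its exon bases with Gm12473.

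Npr3, the clearance receptor, had 163, 167, 146 and 127 CPM in mutant replicates 1 to 4, against 135, 135, 126 and 131 CPM in WT replicates 1 to 4. Mutant replicate 4 lay among the WT libraries and the other mutants lay above them. The means were 151 ± 18 CPM in mutants and 132 ± 4.34 CPM in WT (SD, n = 4 each), with a log2 fold change of 0.19 ± 0.08 (SE, adjusted p = 0.14 in edgeR). Without mutant replicate 4 the log2 fold change was 0.27 (adjusted p = 0.0028 in edgeR), and DESeq2 gave an adjusted p of 0.046. Mutant replicate 4 also had the highest sum of lung and airway markers, 891 CPM, and the lowest sum of atrial markers, 2162 CPM, and the part of either in its Npr3 level was not tested. In the 5 libraries with airway RNA the log2 fold change of Npr3 was 0.06 (adjusted p = 0.59 in edgeR). In the 3 without it was 0.29, a value against a lone WT library. With the lung and airway markers as a covariate the log2 fold change of Npr3 was 0.19 and passed (adjusted p = 0.0035 in edgeR). The gene lies on chromosome 15, 11839896 to 11905674, minus strand.

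Clearance and signalling receptors were also compared within libraries. Npr3 stood 2.31, 2.55, 2.21 and 1.83 times above Npr1 in RPKM in mutant replicates 1 to 4, against 2.3, 2.36, 2.08 and 2.01 times in WT replicates 1 to 4. The genotypes overlapped, and the log2 ratio of Npr3 to Npr1 differed by 0.02 between mutants and WT (two-sided exact permutation test, p = 0.914).

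Per length, the order of the 7 genes was led by the peptides of the cardiomyocyte. Nppa had 1965 ± 207 RPKM in mutants and 2144 ± 276 RPKM in WT and ranked 10th of all tested genes, and Nppb had 172 ± 30.3 RPKM in mutants and 433 ± 66.4 RPKM in WT. Corin followed with 32.9 ± 3.32 RPKM in mutants and 31.9 ± 0.679 RPKM in WT, and Npr3 with 21.7 ± 2.6 RPKM in mutants and 19 ± 0.626 RPKM in WT. The cyclase receptors came next: Npr1 had 9.8 ± 0.368 RPKM in mutants and 8.72 ± 0.496 RPKM in WT, and Npr2 had 9.3 ± 0.833 RPKM in mutants and 10.2 ± 0.438 RPKM in WT. Npr1 and Npr2 overlapped among the mutant libraries, whereas in WT every Npr2 level was above every Npr1 level. All other neighbours in this order were separated in both genotypes, and Nppc was lowest with 0.303 ± 0.186 RPKM in mutants and 0.274 ± 0.0987 RPKM in WT (SD, n = 4 each, for all genes).

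**Figure D3:**
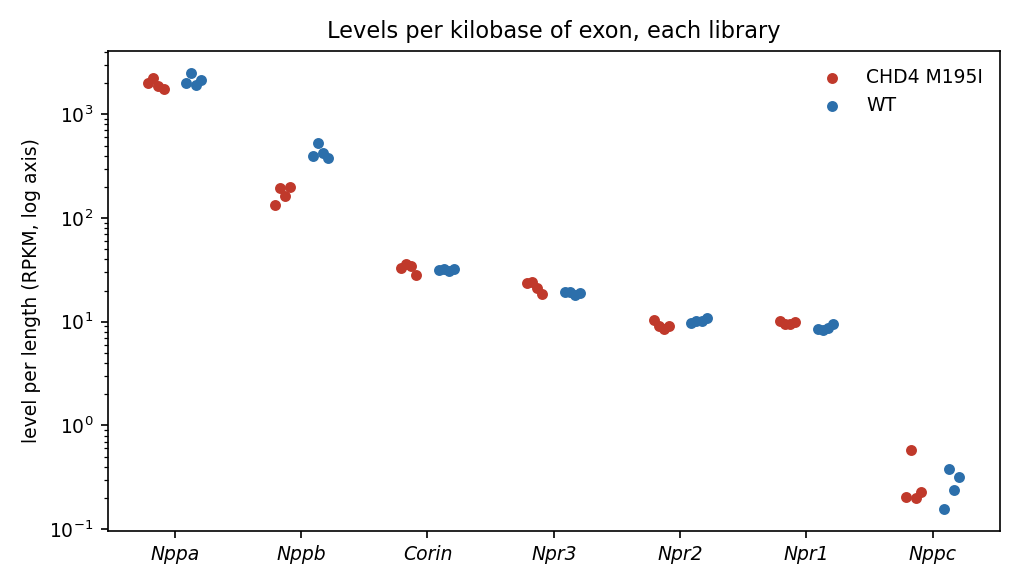
RPKM of the 7 genes on a log axis, in CHD4 M195I left of WT for each gene (1 point per library). Nppa averages 1965 RPKM in mutants and 2144 RPKM in WT, Nppb is lower in all mutants than in all WT libraries, and Nppc is below 1 RPKM throughout.

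Around Nppb, 26 genes within 250 kb were examined, and 16 of them besides Nppa and Nppb were tested. Of these 16, 8 fell and 0 rose, against 7.49% and 5.75% of all tested genes, and the 16 log2 fold changes ranged from -0.44 to 0.49. Plod1, a collagen lysyl hydroxylase, had 114 CPM in mutants and 155 CPM in WT (log2 fold change -0.44 ± 0.05 SE, adjusted p = 6.7e-05 in edgeR). Mfn2, which drives mitochondrial fusion, had 579 CPM in mutants and 681 CPM in WT (-0.23 ± 0.04, adjusted p = 0.00072). The other genes that fell were Fbxo44 (log2 fold change -0.36), Zfp984 (-0.34), Fv1 (-0.26), Miip (-0.25), the chloride transporter gene Clcn6 next to Nppa (-0.25) and 2510039O18Rik (-0.16). None of the 8 changed as much as Nppb. The calls of Zfp984, Fv1 and 2510039O18Rik were lost in 4, 5 and 7 of the 8 fits that left out 1 library. Scaling by library totals gave 6 lower and 0 higher, and leaving out 1 library gave between 5 and 7 lower, with 5 without mutant replicate 2 or mutant replicate 3. In the 3 libraries without airway RNA 3 were lower, and with Xist as a covariate 1 was.

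**Figure D4:**
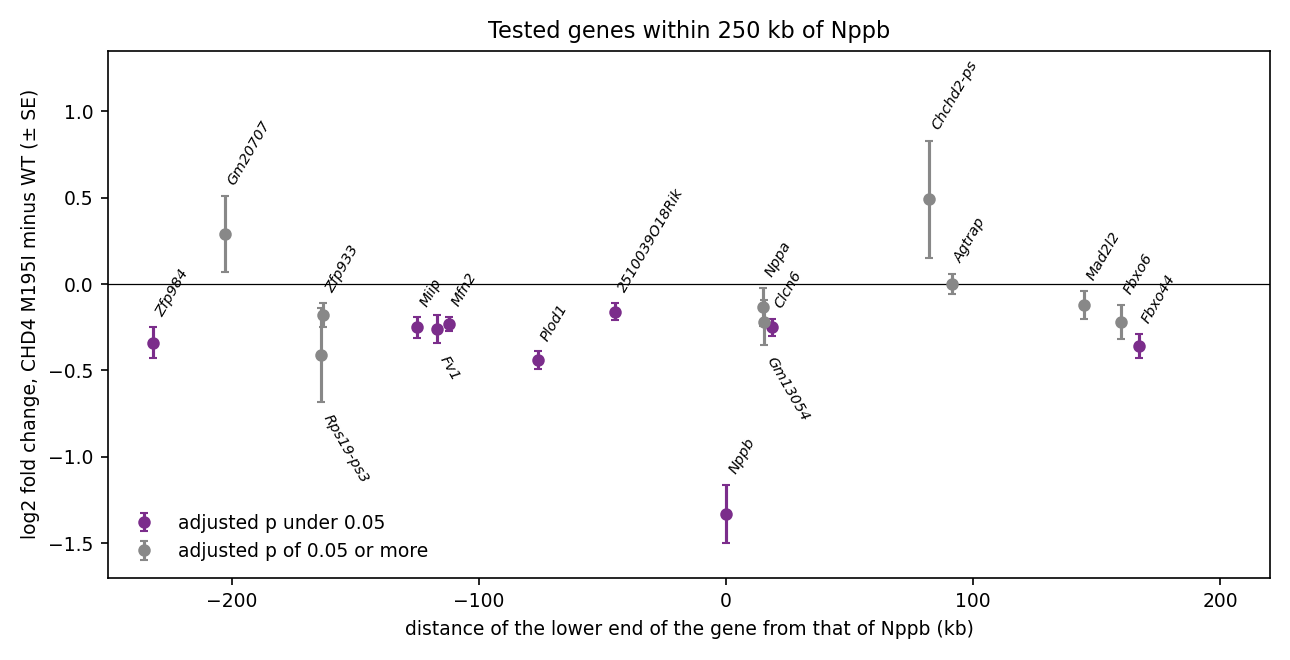
Log2 fold change (CHD4 M195I minus WT, ± SE) of Nppb, Nppa and the 16 other tested genes examined within 250 kb, against the distance of its lower end from that of Nppb in kb. Purple points had an adjusted p under 0.05, and all 9 of them, Nppb included, lie below 0, with Nppb at -1.33 and the others between -0.44 and -0.16.

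Of 12 listed genes that process, amidate or degrade the peptides, or build secretory granules, 8 were tested. Of these, 1 fell and 0 rose, with a median log2 fold change of 0.02 against 0.00 over all tested genes, and the share that passed was near the 13.2% over all tested genes. The gene that fell was Pcsk6, a proprotein convertase that can activate Corin, with 25 ± 0.737 CPM in mutants and 30.6 ± 2.62 CPM in WT (log2 fold change -0.29 ± 0.06 SE, adjusted p = 0.0061 in edgeR). Furin, the convertase of pro-BNP, had 167 ± 3.33 CPM in mutants and 165 ± 5.94 CPM in WT (adjusted p = 0.82). Pam, an amidating enzyme that is a major protein of atrial granules, had 2350 ± 267 CPM in mutants and 2212 ± 52.2 CPM in WT (adjusted p = 0.49). Mme, the peptidase neprilysin that degrades ANP, had 5.66 ± 0.437 CPM in mutants and 6.73 ± 0.92 CPM in WT (adjusted p = 0.2). Ostn, whose product competes for the clearance receptor, had 0 reads in all 8 libraries, and Mep1a, Chga, Chgb and Scg2 stayed under 1 CPM.

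Downstream of the receptors, 21 of 22 listed genes of cyclic GMP signalling were tested, and 6 fell and 0 rose (median 0.06), against 7.49% lower and 5.75% higher over all tested genes. Pde1c, a phosphodiesterase that breaks down cyclic GMP and cyclic AMP, had 69.6 ± 3.57 CPM in mutants and 83.7 ± 3.65 CPM in WT (log2 fold change -0.27 ± 0.05 SE, adjusted p = 0.0015 in edgeR). Gucy1b1, a subunit of the soluble guanylyl cyclase that nitric oxide activates, had 57.8 ± 0.943 CPM in mutants and 66.8 ± 0.895 CPM in WT (-0.21 ± 0.04, adjusted p = 0.0021). Its partner subunit gene Gucy1a1 had 101 ± 7.15 CPM in mutants and 89 ± 6.62 CPM in WT and did not pass (adjusted p = 0.064). Rgs2, Vasp, Pde10a and Nos3 also fell, by log2 fold changes between -0.45 and -0.15. The kinase gene Prkg1 had 22.4 ± 1.27 CPM in mutants and 21.5 ± 3.19 CPM in WT (adjusted p = 0.77). With library totals as scaling, 4 genes of this list were lower and 1 was higher.

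All 28 transcription factors listed for the Nppa and Nppb promoters were tested, and 4 fell and 0 rose (median -0.01). The share that passed was near the 13.2% over all tested genes. The cardiac factors Gata4 (log2 fold change -0.07, adjusted p = 0.21 in edgeR), Nkx2-5 (0.08, adjusted p = 0.38) and Tead1 (-0.00, adjusted p = 0.97) did not pass. Egr1, an immediate early gene, had 28.1 ± 3.85 CPM in mutants and 48.3 ± 4.59 CPM in WT (-0.78 ± 0.10 SE, adjusted p = 0.0011). Klf13 had 92.7 ± 6.17 CPM in mutants and 107 ± 5.5 CPM in WT (-0.21 ± 0.05, adjusted p = 0.013), and this call was lost without WT replicate 1. Nfatc4 and Tbx3 also fell, by -0.35 and -0.29. This list depended on the scaling: with library totals, 1 gene was lower and 5 were higher. Without WT replicate 1, 1 was lower and 0 higher.

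Among cardiomyocyte genes known to respond to load or stretch, 15 were tested, and 6 fell and 0 rose, against 7.49% lower over all tested genes. The list was not split by the direction of that response, which is not that of Nppb for each gene. An example is Myh6 (log2 fold change -0.37, adjusted p = 0.096 in edgeR). All 15 log2 fold changes were below 0, from -0.97 to -0.07, with a median of -0.37 against 0.00 over all tested genes, and the same held with library totals as scaling (median -0.32, 5 lower). Ccn1, a matricellular protein gene induced by stretch, had 42.5 ± 3.74 CPM in mutants and 79.2 ± 7.5 CPM in WT (-0.90 ± 0.08 SE, adjusted p = 4.3e-05 in edgeR). Rcan1, a calcineurin inhibitor and target, had 89.5 ± 4.98 CPM in mutants and 117 ± 7.64 CPM in WT (-0.39 ± 0.05, adjusted p = 0.00017). Csrp3, Xirp2, Ankrd1 and Hspb7, of the sarcomere or its attachment, also fell, by log2 fold changes between -0.72 and -0.20. Acta1, another gene of the fetal programme, had 50 ± 9.74 CPM in mutants and 64.7 ± 3.15 CPM in WT and did not pass (adjusted p = 0.14). Leaving out 1 library left between 4 and 8 genes of this list lower and 0 higher: 4 without mutant replicate 4 or WT replicate 1. DESeq2 called 10 of them lower.

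**Figure D5:**
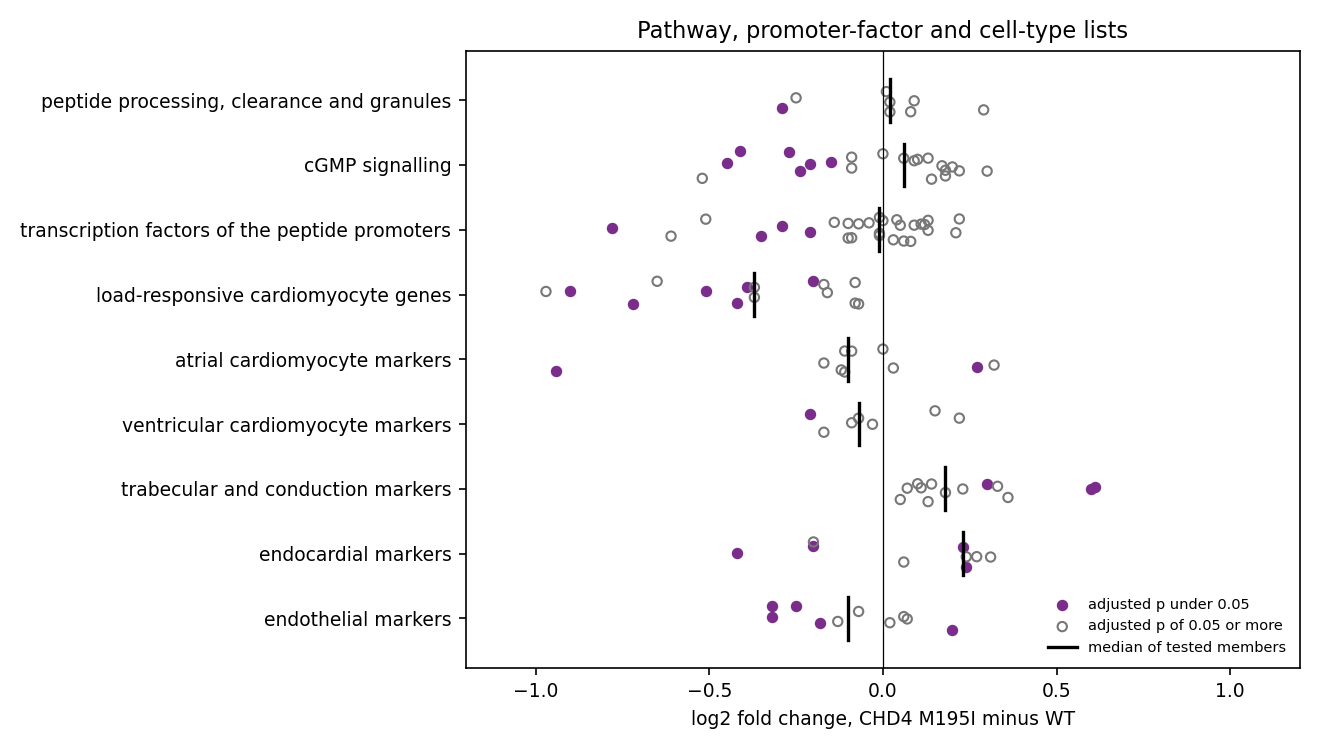
Log2 fold change (CHD4 M195I minus WT) of every tested gene in 9 lists, 1 point per gene, with filled points for an adjusted p under 0.05 and a line at the median of the list. The load-responsive genes lie entirely below 0, and the trabecular and conduction markers entirely above 0.

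The chambers that express the peptides were followed through marker genes. Of 10 atrial markers, 1 rose and 1 fell, against 5.75% higher and 7.49% lower over all tested genes. Nr2f2, an atrial transcription factor, had 53.3 ± 2.33 CPM in mutants and 44.2 ± 0.968 CPM in WT (log2 fold change 0.27 ± 0.05 SE, adjusted p = 0.0013 in edgeR). Bmp10, a secreted ligand of atrial and trabecular myocardium, had 249 ± 45.4 CPM in mutants and 478 ± 71.3 CPM in WT (-0.94 ± 0.17, adjusted p = 0.017). The atrial light chain genes Myl7 (-0.09, adjusted p = 0.6) and Myl4 (-0.11, adjusted p = 0.43) did not pass. The 10 markers summed to 2911, 2634, 2721 and 2162 CPM in mutant replicates 1 to 4, against 2977, 3032, 2870 and 3009 CPM in WT replicates 1 to 4. With the atrial markers as a covariate Nppb still passed, Npr1 kept its log2 fold change at 0.18 but did not pass (adjusted p = 0.052 in edgeR), and Npr3 passed (0.24, adjusted p = 0.013).

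Of 7 ventricular markers, 1 fell and 0 rose, against 7.49% lower over all tested genes. The marker that fell was the light chain gene Myl3, with 2188 ± 56.4 CPM in mutants and 2536 ± 163 CPM in WT (log2 fold change -0.21 ± 0.05 SE, adjusted p = 0.0077 in edgeR). Of 13 markers of trabeculae and conduction tissue, 3 rose and 0 fell, against 5.75% higher over all tested genes. All 13 log2 fold changes were above 0 and their median was 0.18, and between 11 and 13 were above 0 under the alternatives. Bmp10 and Nppa, which trabeculae also express, are not on this list and had log2 fold changes of -0.94 and -0.13. Hcn4, the pacemaker channel, had 56.4 ± 5.52 CPM in mutants and 37 ± 4.18 CPM in WT (0.61 ± 0.09, adjusted p = 0.0018), and Cpne5, a Purkinje fibre marker, had 15.1 ± 1.8 CPM in mutants and 9.97 ± 0.227 CPM in WT (0.60 ± 0.09, adjusted p = 0.00052). The count was 2 without mutant replicate 3, WT replicate 1 or WT replicate 4, and 5 without mutant replicate 1, with library totals as scaling or in DESeq2. The part of these markers in the peptide levels was not tested.

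The genes whose pattern over the 8 libraries was most like that of Nppb were Nmrk2, Lad1 and Ccn2, by root-mean-square difference of centred log2 CPM among 14672 genes (0.19, 0.22 and 0.23). Nmrk2, a nicotinamide riboside kinase, had 19 ± 0.51 CPM in mutants and 53.2 ± 8.78 CPM in WT. Lad1 had 5.17 ± 0.779 CPM in mutants and 10.2 ± 1.6 CPM in WT, and Ccn2 had 126 ± 31.4 CPM in mutants and 247 ± 50.7 CPM in WT. Ccn2 did not pass (adjusted p = 0.051 in edgeR), and it passed in 1 of the 8 fits that left out 1 library. Of their exon bases, Nmrk2 shares 14.7% with Atcayos and Ccn2 23.2% with Gm15270. For Nppa the nearest were Ripk3, Ecscr and Zfp697, each at 0.05. For Npr1 they were Tbc1d14 (0.03), Dlg5 (0.04) and Cklf (0.04). None of these 6 had a mean difference between genotypes above 0.22 on the log2 scale.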

How the data were processed

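Trizol extracts of dissected hearts were made into libraries with a TruSeq RNA kit, per the labels' protocols. The submitters' processing notes name Trimmomatic 0.36, STAR 2.5.2b, featureCounts (Subread 1.5.2) and the mouse build GRCm38, also called mm10. What the authors deposited are raw counts per gene, and 0 values differed between the series table and the files per library. The sources used here name neither the strand setting nor the annotation release. Symbols came from GENCODE M21 for 48970 of 49315 genes, and promoters from RefSeq.

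Genes were filtered with filterByExpr (minimum count 10), scaled by TMM and tested with the robust quasi-likelihood fit of edgeR (4.0.16, R 4.3.3) without covariates. Standard errors come from that fit, CPM is TMM-scaled, except for Xist and Y-linked genes, which use library totals, and RPKM uses the length column of the files. Ratios used counts with 0.5 added and exact permutation tests (SciPy 1.17.1). Alternatives used DESeq2 1.42.0, limma 3.58.1 voom, other scalings and filters, covariates and subsets of libraries. Libraries without airway RNA had under 10 CPM of Scgb3a2. Replicates of a genotype differed beyond sampling noise (chi-square per degree of freedom 2.88 to 9.29). The labels do not say that they are separate embryos, so p-values measure the spread between these libraries.

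The genes and the 14 other lists were chosen with earlier results of these data known. Named were the 7 genes, Chd4, tested genes within 250 kb of Nppb, up to 2 called genes per list and direction by adjusted p, and for Nppa, Nppb and Npr1 the 3 genes nearest in pattern. A gene that this rule selects near Nppb is not reported here and is in neither the counts nor the plot of that window. Other list members named were chosen after their values were seen. The test was tried on simulated counts of 16379 genes. It found 19.2% of genes given a 1.25-fold change, 78.3% given a 1.5-fold change and 97.6% given a 2-fold change. Unchanged genes made up 4.03% of what it called. Recovery of changes under 1.25-fold, such as those of Npr1, Npr2, Npr3 and Nppa, was not tested.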

Additional observations from a re-analysis of the deposited data

Results flagged for a closer look

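Nppc in mutant replicate 2 stood apart from the other mutant libraries. It had 0.605 CPM there, against 0.206 to 0.24 CPM in the other 3 mutants, and the gap to the nearest of them was 0.916 of the whole range, above the critical value of 0.829 for 4 libraries. The value rests on 13 reads. Chance flags about 1 in 20 groups, and 14 groups were examined.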

How the results depend on the processing

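The count of genes passing over all tested (2168) stayed within 1.5 times of itself under most alternatives, and ranged from 1525 to 1987 when 1 library was left out. It was 242 with Xist as a covariate and 1407 in the 3 libraries without airway RNA, where the lone WT library is assumed to vary like the mutants. With library totals as scaling, 1856 of 2714 called genes were higher, against 942 of 2168 with TMM. Of the 7 genes, 2 passed in the main comparison, and between 1 and 2 when 1 library was left out (1 without mutant replicate 3 or WT replicate 1, 2 or 3). Nppb passed in each of these 8 fits. The gene beside it was Npr1 without mutant replicate 2 or WT replicate 4, Npr2 without mutant replicate 1 and Npr3 without mutant replicate 4. With Xist as a covariate, 0 of the 7 genes passed. Directions turned for Nppa (0.08, adjusted p = 0.89 in edgeR) and Npr2 (0.002, adjusted p = 1) with Xist as a covariate and for Corin (-0.02, adjusted p = 0.91) in the 5 libraries with airway RNA; none of these had passed. The log2 ratio of Nppb to Nppa ranged from -1.34 to -1.09 when 1 library was left out. That of Npr3 to Npr1, whose main difference is 0.02, ranged from -0.05 to 0.11 and was -0.08 in the libraries with airway RNA. With Xist as a covariate, the lists gave 0 lower cyclic GMP genes, 0 lower promoter factors, 1 lower load-responsive gene and 1 higher trabecular marker, while the medians of the last pair of lists were -0.37 and 0.24. The cause was not tested.

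Replicate numbers are shared by both genotypes, and the main fit did not treat them as pairs. The correlations of deviations were -0.516, 0.774, 0.562 and 0.102 for replicates 1 to 4, and 4 of 8 libraries correlated best with their own number. With 4 numbers, this does not settle whether the libraries are paired. With the replicate block, 2455 genes and 3 of the 7 passed, Npr3 among them. Depth limits Nppc, at 3 to 13 reads per library.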

Other observations

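Endothelial and endocardial cells carry Npr1 and Npr3, and their marker lists moved in both directions. Of 10 endothelial markers, 1 rose and 4 fell, against 5.75% higher and 7.49% lower over all tested genes. Tek, an angiopoietin receptor, had 115 ± 3.08 CPM in mutants and 101 ± 4.08 CPM in WT (log2 fold change 0.20 ± 0.04 SE, adjusted p = 0.004 in edgeR), whereas the VEGF receptor Flt1 had 134 ± 8.81 CPM in mutants and 167 ± 6.58 CPM in WT (-0.32 ± 0.05, adjusted p = 0.00053) and Esam had 62.3 ± 2.01 CPM in mutants and 74.1 ± 3.94 CPM in WT (-0.25 ± 0.05, adjusted p = 0.0023). Of 9 endocardial markers, 2 rose and 2 fell, against the same shares over all tested genes. The 9 endocardial markers summed to 538 to 610 CPM in mutants and 491 to 538 CPM in WT. Cdh11 was higher in mutants (0.24, adjusted p = 0.016, lost without mutant replicate 2 or WT replicate 1) and Tmem100 lower (-0.42, adjusted p = 0.0054). Adgrg6 was higher (0.23, adjusted p = 0.041) and Nfatc1 lower (-0.20, adjusted p = 0.027), and these calls were lost in 7 and 5 of the 8 fits that left out 1 library.

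Of 10 smooth muscle and pericyte markers, 2 fell and 0 rose, against 7.49% lower and 5.75% higher over all tested genes. Cspg4 had 107 ± 3.46 CPM in mutants and 136 ± 6.37 CPM in WT (-0.33 ± 0.04 SE, adjusted p = 0.00013 in edgeR), and Acta2 had 748 ± 39.1 CPM in mutants and 877 ± 42.4 CPM in WT (-0.23 ± 0.05, adjusted p = 0.0045). Of 9 fibroblast markers, Tcf21 fell (-0.25, adjusted p = 0.0054) and 0 rose. Without WT replicate 2, 3 of them were lower, and in the 5 libraries with airway RNA 4 were lower, while their median in the 3 libraries without it, against a lone WT library, was 0.25. Of the markers of lung (11 tested), cartilage (9 tested) and erythroid cells (7 tested), 0 passed in edgeR, against 13.2% of all tested genes. Respectively, 0, 2 and 4 of them had an unadjusted p under 0.05 in edgeR. Such values were common: Npr2, with an unadjusted p of 0.04 in edgeR, ranked 3991st by p among the 16372 tested genes. DESeq2 and limma-voom called 0 of the lung and cartilage markers, and each called 4 of the erythroid markers lower. The median log2 fold change of the erythroid markers was -0.84, with 3 of 7 not overlapping between genotypes, against 18.6% of all tested genes. It was -1.15 in the libraries with airway RNA and -0.12 in those without.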
